A study of Mus musculus with 2 samples.

Results

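The aquaporin genes Aqp1, Aqp3, Aqp4, Aqp5, Aqp8, Aqp9 and Aqp11 were listed by name and are 7 of 21911 protein-coding mouse genes (GENCODE M21, build mm10). Each locus runs from 10 kb before the gene to 10 kb past it. Open chromatin had been mapped by DNase-seq, in which DNase I cuts accessible DNA, in whole stomach of newborn (postnatal day 0) mice of the strain B6NCrl, untreated as far as the labels say. There was 1 group of 2 replicates, and no groups could be compared, so every value here is a description without a test. The labels tie both libraries to a single donor record, do not say whether separate animals were used, and give the sex as not collected.

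Aquaporins are membrane channels that let water pass along osmotic gradients, and the aquaglyceroporins among them also pass glycerol. In secretory and absorptive epithelia, water crosses the cell layer through such channels after ions have been pumped across. In the adult stomach, Aqp4 is known from the basolateral membrane of acid-secreting parietal cells and Aqp5 from glands near the pylorus. A DNase I peak marks a short stretch of accessible DNA, often a promoter or an enhancer, and by itself does not show that the gene is transcribed.

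Across the 7 loci, 27 regions were found in both replicates and 14 more in a single replicate. A shared region is made of peaks of the 2 replicates that overlap by at least 1 bp. A promoter is called open when a shared region overlaps the 1 kb on either side of any annotated start of the gene. By this rule 4 of 7 promoters were open, those of Aqp1, Aqp3, Aqp8 and Aqp11, against 66.4% of all protein-coding genes. Aqp4 had promoter peaks in replicate 1 only and Aqp5 in replicate 2 only, states found at 1.46 and 2.62% of all genes. Aqp9 had no promoter peak in either replicate, as did 29.2% of all genes.

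The shared regions at the promoters of Aqp1, Aqp3 and Aqp8 are printed first, because they mark the starts found open in both libraries. The sequences come from the RefSeq assembly of the same build and run 5' to 3' in the direction of the gene. Only the part of each region before the first transcribed base in GENCODE or RefSeq is given, and at Aqp1 the RefSeq start lies further upstream. Capitals mark matches to the motifs described further on.
Aqp1 promoter (chr6:55336176-55336298, plus strand): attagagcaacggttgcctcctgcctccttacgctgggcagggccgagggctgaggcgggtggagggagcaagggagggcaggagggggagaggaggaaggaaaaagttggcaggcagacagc
Aqp3 promoter (chr4:41098184-41098285, minus strand): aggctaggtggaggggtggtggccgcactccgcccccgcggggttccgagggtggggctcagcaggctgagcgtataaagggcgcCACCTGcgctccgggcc
Aqp8 promoter (chr7:123462136-123462290, plus strand): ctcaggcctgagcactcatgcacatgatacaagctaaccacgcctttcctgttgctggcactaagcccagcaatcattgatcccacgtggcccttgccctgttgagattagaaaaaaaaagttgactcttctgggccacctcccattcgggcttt
The Aqp3 region is the richest of these in C and G (71.2%), and its E-box match CACCTG lies close to the start. The Aqp1 and Aqp8 promoters hold no match to the motifs searched. The open region of Aqp11 lies in its untranslated first exon and is not printed.

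The strongest shared region of each locus by signal rank is printed next, because the highest values of the loci lie there and mostly away from the main start. For Aqp11 the strongest region is the one in the first exon, so the second strongest stands here. That of Aqp5 follows with its neighbour in the set after, and no sequence is given for Aqp4.
Aqp1 intron 1 (chr6:55341836-55341985, plus strand): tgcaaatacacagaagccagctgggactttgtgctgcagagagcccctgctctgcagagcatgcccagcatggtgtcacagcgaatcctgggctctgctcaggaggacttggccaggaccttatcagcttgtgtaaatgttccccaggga
Aqp3 intron 3 (chr4:41094456-41094605, minus strand): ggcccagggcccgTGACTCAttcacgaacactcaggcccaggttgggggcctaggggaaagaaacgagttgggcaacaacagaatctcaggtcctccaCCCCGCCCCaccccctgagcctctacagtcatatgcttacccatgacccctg
Aqp8 intron 4, first region (chr7:123465816-123465965, plus strand): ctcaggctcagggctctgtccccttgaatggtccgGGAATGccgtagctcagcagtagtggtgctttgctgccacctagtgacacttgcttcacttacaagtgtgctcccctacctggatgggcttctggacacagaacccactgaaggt
Aqp9 intron 2 (chr9:71133316-71133485, minus strand): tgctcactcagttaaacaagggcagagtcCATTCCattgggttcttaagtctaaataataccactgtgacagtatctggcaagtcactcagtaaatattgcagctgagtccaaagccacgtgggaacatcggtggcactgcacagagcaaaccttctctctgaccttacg
Aqp11 upstream (chr7:97748216-97748385, minus strand): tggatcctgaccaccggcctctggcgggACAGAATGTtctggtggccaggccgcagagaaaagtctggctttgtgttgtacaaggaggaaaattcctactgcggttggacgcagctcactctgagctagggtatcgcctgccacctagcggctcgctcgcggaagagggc
The Aqp3 region joins an AP-1 match, TGACTCA, and a GC box, CCCCGCCCC, within a single peak. AP-1 is the Fos and Jun family of stress and growth factors, and GC boxes are bound by SP and KLF factors. The Aqp11 region holds a match to the glucocorticoid receptor pattern, and the Aqp8 and Aqp9 regions a match to the TEAD pattern.

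Regions that hold the same match in a pair were singled out after their sequences had been seen, and are shown because the pairs are uncommon among shared regions.
Aqp5 downstream, first region (chr15:99596076-99596245, plus strand): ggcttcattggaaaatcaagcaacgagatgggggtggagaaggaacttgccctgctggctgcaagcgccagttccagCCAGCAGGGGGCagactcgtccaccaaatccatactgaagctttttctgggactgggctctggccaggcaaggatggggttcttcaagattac
Aqp5 downstream, second region (chr15:99596496-99596665, plus strand): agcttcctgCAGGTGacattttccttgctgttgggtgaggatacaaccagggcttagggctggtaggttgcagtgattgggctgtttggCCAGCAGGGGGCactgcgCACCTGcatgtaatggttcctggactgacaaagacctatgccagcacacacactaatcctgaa
Aqp8 intron 4, second region (chr7:123466156-123466325, plus strand): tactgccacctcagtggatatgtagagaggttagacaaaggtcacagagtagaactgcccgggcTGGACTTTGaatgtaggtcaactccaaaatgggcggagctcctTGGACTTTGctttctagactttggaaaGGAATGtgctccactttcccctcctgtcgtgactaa
Both Aqp5 regions hold an identical CTCF match on the same strand, 432 bp apart. CTCF is the factor that anchors chromatin loops and domain borders. The second Aqp8 region holds the HNF4 match TGGACTTTG at 2 places 43 bp apart. HNF4 factors are nuclear receptors of gut and liver epithelium.

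Replicate 1 had 139654 deposited peaks and replicate 2 had 153178. No source used here gives their read numbers, so the depth is unknown. The markers of gastric epithelium had open promoters at 9 of 9 genes, those of visceral smooth muscle at 5 of 6, and those of the squamous forestomach at 2 of 3. Promoters were also open at 2 of 6 endothelial, 2 of 6 erythroid, 3 of 5 hepatocyte, 1 of 5 exocrine pancreas, 2 of 3 glial and 2 of 3 intestinal markers. Over all protein-coding genes the share was 66.4%. The forestomach, glial and intestinal lists (66.7% each) and the hepatocyte list (60%) lay near it, so their counts do not show that such cells were present. The lists were not matched for promoter CpG. The tissue is a mixture, and fewer cells with an open site cannot be told apart from less opening per cell.

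Of the peaks in the aquaporin loci, 27 of 33 in replicate 1 had a partner in replicate 2, which is 81.8% (95% Wilson interval 65.6 to 91.4). In replicate 2 it was 27 of 35, or 77.1% (61.0 to 87.9). Over all peaks the shares were 77.6 and 70.7%, inside those intervals. The intervals cover counting error only and treat peaks of the same locus as independent, so this is no test. Each shared region was made of exactly 1 peak per replicate, and the peaks were offset by 0 bp in 10 regions and by at most 40 bp.

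Signal is the authors' value for each peak, with no stated unit, so it is given with its percentile among the peaks of its own replicate. Over the 27 shared regions the median percentile was 76.0 in replicate 1 and 71.9 in replicate 2. Over all 105543 shared regions it was 60.4 and 63.8. The regions in a single replicate lay lower, with a median of 24.5 and a highest value of 35.2 for the 6 of replicate 1. For the 8 of replicate 2 the median was 34.1 and the highest 47.8. Thus no unshared peak of these loci reached the middle of its own list, while 22 of 27 shared regions lay above percentile 50 in each replicate. The same counts were not made over all peaks, so this is not shown to be particular to these loci.

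**Figure D1:**
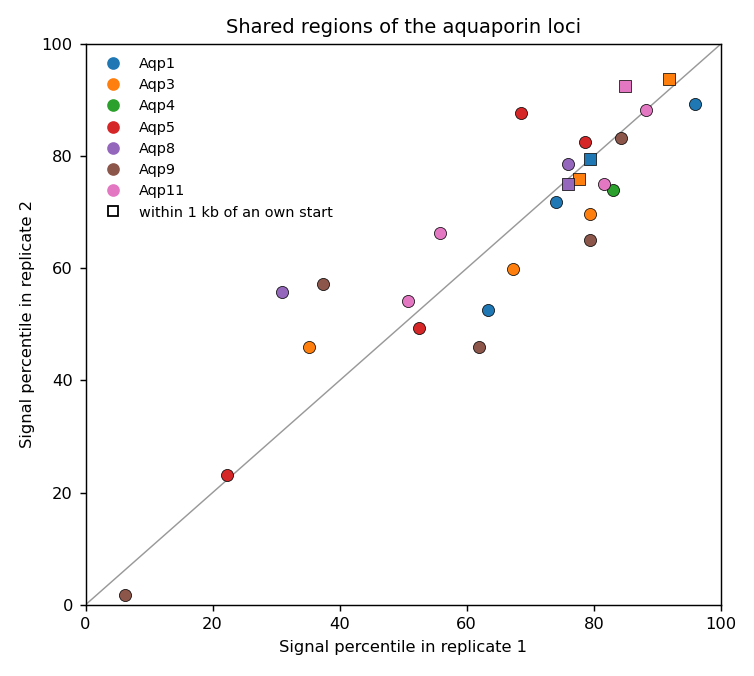
Signal percentile of the 27 shared regions of the aquaporin loci in replicate 1 (x axis, percent of that replicate's peaks) against replicate 2 (y axis), coloured by gene, with squares for regions within 1 kb of a start of the gene and a line of equality. The squares, 5 in all, sit between 74.9 and 93.8 on both axes, and an Aqp9 region stands alone near the origin at 6.24 and 1.82.

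Every one of the 7 loci held at least 1 shared region, against 82% of all protein-coding loci. The counts ran from 1 at Aqp4 to 5 at Aqp3, Aqp9 and Aqp11, and the median of 4 equals the median over all genes. Because loci differ in length, from 24.0 kb at Aqp5 to 78.0 kb at Aqp9, density is the fairer scale. Aqp3 had 1.96 shared regions per 10 kb, above 87.4% of genes with ties split, and Aqp5 had 1.66 (81.6%). Aqp11 had 1.46 (76.7%), Aqp1 1.25 (69.5%) and Aqp8 1.17 (66.5%). Below the median density over all genes, 0.791 per 10 kb, lay Aqp9 with 0.641 (42.7%) and Aqp4 with 0.241 (23.3%). The 4 genes with open promoters were thus not the 4 densest, since Aqp5 ranked next to Aqp3. That rank of Aqp5 rests on the flanks, because without them it held 0 shared regions. Only 2 of its 4 shared regions had the Aqp5 start as the nearest coding start, and the others lay in Aqp2 and Aqp6.

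**Figure D2:**
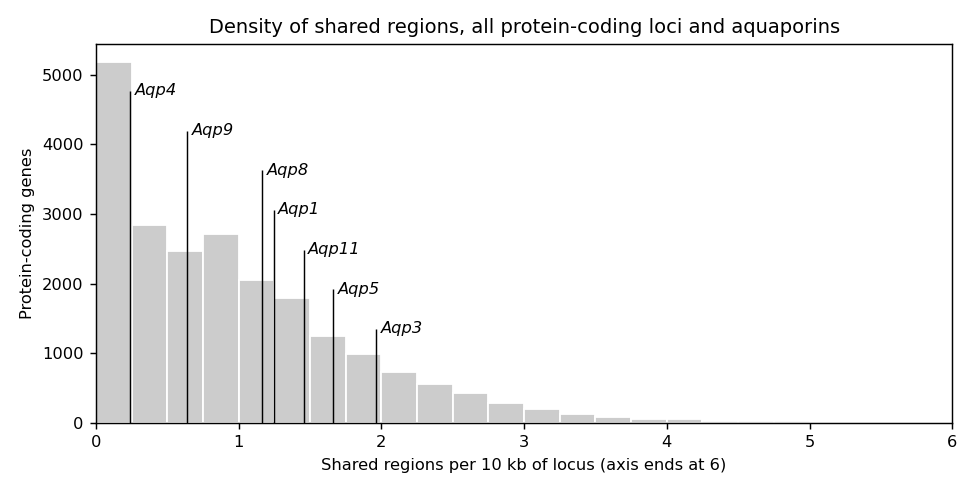
Number of protein-coding genes (y axis) by shared regions per 10 kb of locus (x axis, in steps of 0.25), with a vertical line at the value of each aquaporin gene. Aqp4 at 0.241 falls in the lowest bar, and Aqp3 at 1.96 lies farthest right of the 7.

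Hotspots, wider stretches of raised cleavage that carry the -log10 of a q value ending at 100, gave a like picture. Of all hotspots, 38.9% in replicate 1 and 39.4% in replicate 2 were at 100. Around the peaks of these loci the value was either 100 or at most 6. A value of 100 beside a low one therefore does not measure how far the replicates differ. The loci held 31 hotspots in replicate 1 and 35 in replicate 2, which joined into 25 shared ones. All 7 loci had a shared hotspot, against 82% of protein-coding loci. Each of the 27 shared regions lay in a hotspot in both replicates, and 12 lay in one at 100 in both, which is 44.4% against 44.6% of all shared regions. The peaks of a single replicate all lay in a hotspot of that replicate too. Lying in a hotspot is therefore not separate support for the shared regions.

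**Figure D3:**
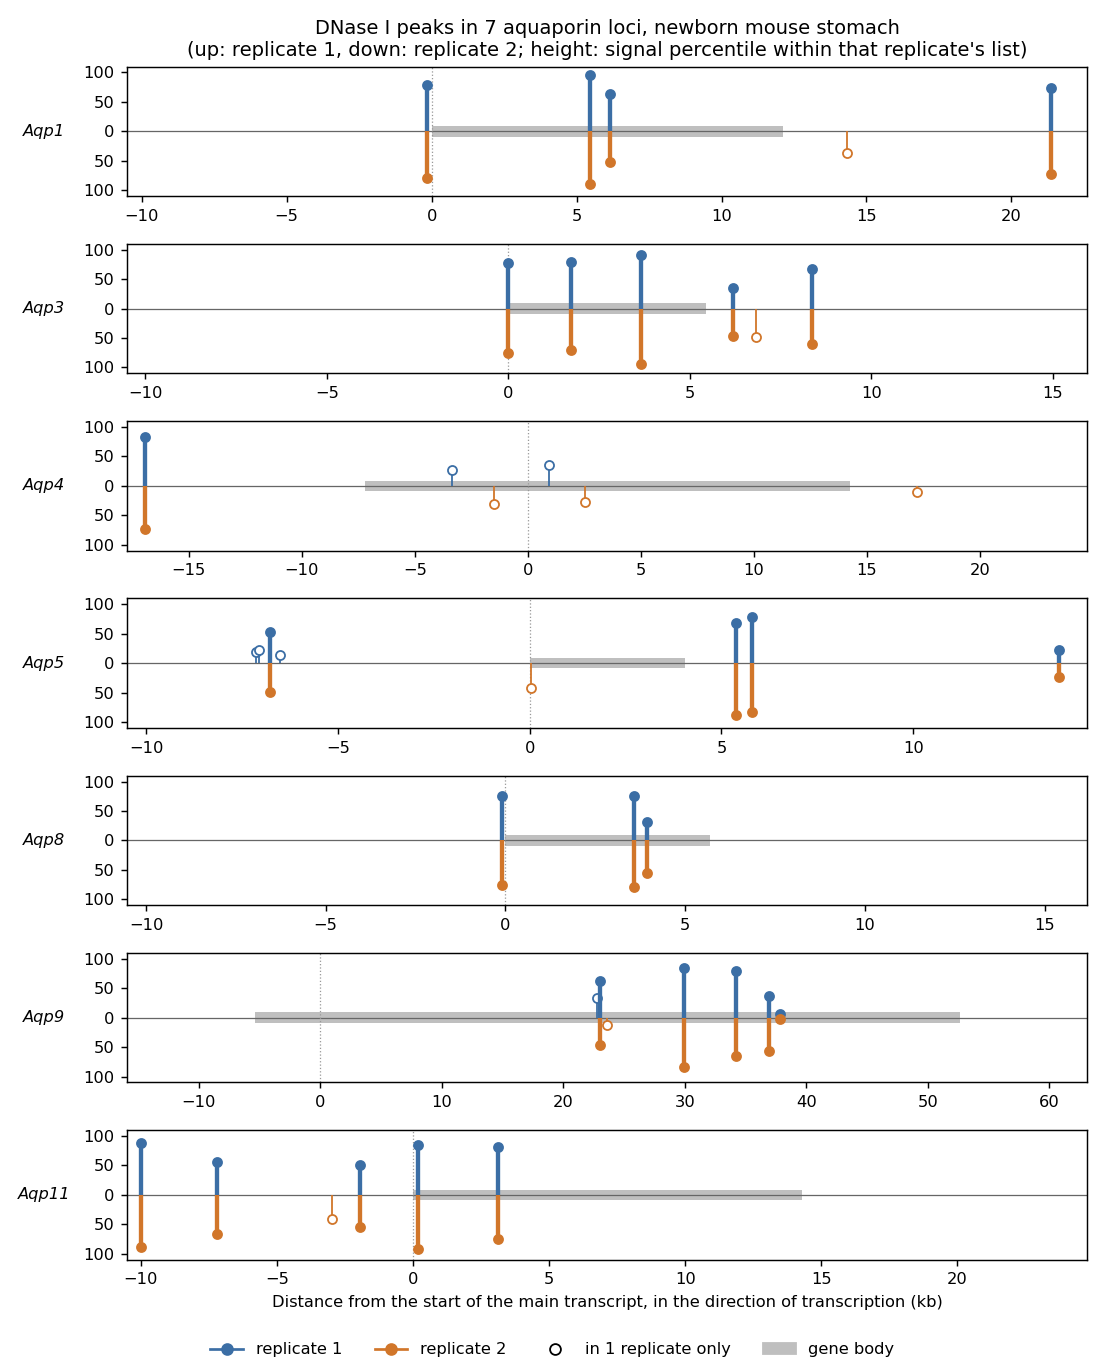
Peaks of the 7 loci by distance from the start of the main transcript in kb (x axis, direction of transcription to the right), with the signal percentile of replicate 1 upward and of replicate 2 downward (y axis). Filled points are shared regions, open points are peaks of 1 replicate only and the grey bar is the gene body. Aqp1, Aqp3, Aqp8 and Aqp11 have filled points at the start, Aqp4 has a single filled point at its far upstream edge, and the 5 filled points of Aqp9 lie deep inside the gene.

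Aqp1, the water channel of red blood cells, kidney proximal tubule and capillary endothelium, lies on chromosome 6 (55336432 to 55348555, plus strand, 4 exons). Its promoter region (55336176 to 55336365), centred 161 bp before the start, reached signals of 67 and 77 in replicates 1 and 2, both at percentile 79.4. The hotspot around it was at the ceiling of 100 in replicate 2 and at 4.62 in replicate 1. The strongest region of the locus was in intron 1, 5479 bp past the start (55341836 to 55341985), with signals of 101 and 92. At percentiles 96.0 and 89.3 it stood above the promoter in both replicates. A weaker peak pair followed in the same intron, 6139 bp past the start (52 and 54). The region at 55357716 to 55357885 (61 and 69) lies beyond the gene, and its nearest coding start is that of Ghrhr, the growth hormone releasing hormone receptor, rather than Aqp1. Of the erythroid markers Gata1, Klf1 and the globin genes Hbb-bs and Hba-a1 had no open promoter, and of the endothelial markers Cdh5, Tek, Tie1 and Emcn had none. The part of such cells in the Aqp1 signal was not tested.

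Aqp3, an aquaglyceroporin of the basolateral membrane of epithelia and of skin keratinocytes, lies on chromosome 4 (41092722 to 41098183, minus strand, 6 exons). It was the only member with 2 shared regions at its own annotated starts. The promoter region (41098116 to 41098285), centred 18 bp before the main start, had signals of 65 and 73, at percentiles 77.7 and 75.9. The stronger of the pair was the region in intron 3 (41094456 to 41094605) with signals of 89 and 102, at percentiles 91.9 and 93.8. It lies 83 bp before the start of a shorter annotated transcript, so it is counted as promoter by the rule used, and it is the region with the AP-1 and GC box matches printed above. Intron 1 held a further region (41096356 to 41096525; 67 and 67). Beyond the gene the signals were lower, 36 and 50 at one site and 55 and 59 at the other, and a peak of replicate 2 alone had 51. Outside the locus the next shared region lay 0.652 kb beyond the upstream edge and 18.2 kb beyond the downstream edge.

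Aqp4, the main water channel of brain astrocytes and of parietal cells, lies on chromosome 18 (15389496 to 15410982, minus strand) and has 7 annotated starts. Its only shared region (15420596 to 15420785), with signals of 72 and 71 at percentiles 83.0 and 74.0, was centred 9709 bp upstream of the nearest start, in an intron of the antisense gene AC133525.2. Within the gene the replicates held different weak peaks. Replicate 1 had peaks with signals of 32 and 36, both within 1 kb of a start, and replicate 2 had 42 and 40 elsewhere in the gene and 31 beyond it. None had a partner, and the percentiles ran from 10.1 to 35.2. The promoter of Aqp4 thus rests on peaks of replicate 1 alone. The peak with signal 32 was centred 977 bp past the nearest Aqp4 start, near the edge of the 1 kb window. The peak with signal 36 was centred 188 bp past an Aqp4 start and also lay within 1 kb of a start of AC133525.2. Of the glial markers, Gfap and Slc1a3 had open promoters and Olig2 did not, and their part in the Aqp4 signal was not tested.

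Aqp5, the water channel of salivary, tear and sweat glands, lies on chromosome 15 (99590782 to 99594829, plus strand) between Aqp2 and Aqp6. No shared region fell within the gene itself. The peak at its promoter (99590736 to 99590885), 29 bp past the start, was found in replicate 2 only, with a signal of 48 at percentile 42.5 in a hotspot of 2.12. The strongest shared regions were the adjoining pair downstream with the CTCF matches, at 99596076 to 99596245 (56 and 89) and 99596496 to 99596665 (66 and 81). They are 250 bp apart, begin 1246 bp past the end of Aqp5 and end 4734 bp before Aqp6, and lie in hotspots at 100 in both replicates. Of the 5592 shared regions with a CTCF match, 32 had another such region within 500 bp, or 0.572%. The other shared regions belong by position to the neighbours, in the last exon of Aqp2 (99583936 to 99584085; 45 and 52) and in Aqp6 (30 and 38). Replicate 1 held 3 more weak peaks in Aqp2, with signals from 26 to 30, that had no partner peak in replicate 2.

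Aqp8, a channel of pancreas, liver and colon that also passes ammonia and hydrogen peroxide, lies on chromosome 7 (123462291 to 123468004, plus strand). All of its peaks were shared, 3 in each replicate, and it was the only member without a peak in a single replicate. The promoter region (123462136 to 123462305), centred 70 bp before the nearest start, had signals of 63 and 72 at percentiles 76.0 and 74.9. Intron 4 held a region of like strength (123465816 to 123465965; 63 and 76) and a weaker one just after it (123466156 to 123466325; 34 and 56), which carries the paired HNF4 matches. Of the 27 regions it differed most between replicates on the percentile scale, at 30.9 and 55.7. Of the 1091 shared regions with an HNF4 match, 14 had 2 or more, which is 0.0133% of all shared regions. That percentage has another base than the one for the CTCF pair, which counts only regions with a CTCF match. Of the pancreas markers listed, 1 of 5 had an open promoter, and of the hepatocyte markers 3 of 5, against 66.4% of all protein-coding genes. Whether such cells add to the Aqp8 signal was not tested.

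Aqp9, an aquaglyceroporin through which hepatocytes take up glycerol, lies on chromosome 9 (71110659 to 71168682, minus strand). None of its 10 annotated starts had a peak within 1 kb in either replicate, and the peak closest to a start was 22142 bp away. Yet the locus held 5 shared regions, all intronic. Among the 6390 genes with no promoter peak in either replicate, 5 or more shared regions occurred at 445, or 6.96%, a count added after that of Aqp9 was seen and not corrected for length. The Aqp9 locus spans 78.0 kb against a median of 37.4 kb, its density of 0.641 lies below the median of all genes, and 2 of its 5 shared regions were left with the stronger 50% of each list. The strongest region lay in intron 2 (71133316 to 71133485) with signals of 74 and 82, at percentiles 84.3 and 83.3. Next came a region in intron 4 (71128996 to 71129165; 67 and 63), of which 67.6% is repeat sequence. It was the only region of the 27 that was at least 50% repeat, against 4.77% of all shared regions. A region in intron 1 (71140156 to 71140325; 51 and 50) holds a match to FOXA, the pioneer factors of the gut. Another intron 4 region (37 and 57) lies within 1 kb of the start of the processed pseudogene Gm47268 inside Aqp9. The weakest shared region of all 7 loci was here too (71125376 to 71125525), with signals of 19 and 21. It sat at percentiles 6.24 and 1.82, although the hotspot around it had 5.30 in replicate 1 and 100 in replicate 2, so signal and hotspot value rank this site very differently.

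Aqp11, an unorthodox aquaporin of the endoplasmic reticulum whose loss causes kidney cysts in mice, lies on chromosome 7 (97724006 to 97738289, minus strand, 3 exons). Its promoter region (97738016 to 97738165) lies in the first exon and had signals of 75 and 99, at percentiles 85.0 and 92.6. It was the strongest of the 4 open main promoters in both replicates. The hotspots around it, 790 and 674 bp wide, were the widest at any shared region of these loci. Upstream, a region at 97748216 to 97748385 had signals of 81 and 90 at percentiles 88.2 and 88.3. It is centred 10012 bp before the start, across the edge of the locus, and the next shared region lies 1.07 kb beyond that edge. Intron 1 held a region at 97735096 to 97735245 (70 and 72), and the remaining upstream regions had signals from 44 to 64.

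Genes with CpG-rich promoters are mostly open, so the aquaporins were also set against promoters of like CpG number, in classes chosen after the values were seen. CpG dinucleotides were counted from 250 bases before to 50 bases into the transcript, at the start with the most. Of all genes with 6 to 10, 51.3% had an open promoter, and in this class Aqp1 (10) and Aqp8 (7) were open while Aqp4 (6) and Aqp9 (9) were not. With 21 to 40 the share was 94.5%, and Aqp3 (21) and Aqp11 (27) were open. Aqp5 had 50, in the class of 41 to 68 where 95.9% of 1948 genes were open in both replicates. A promoter peak in replicate 2 only, as at Aqp5, occurred at 28 genes of that class, or 1.44%.

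**Figure D4:**
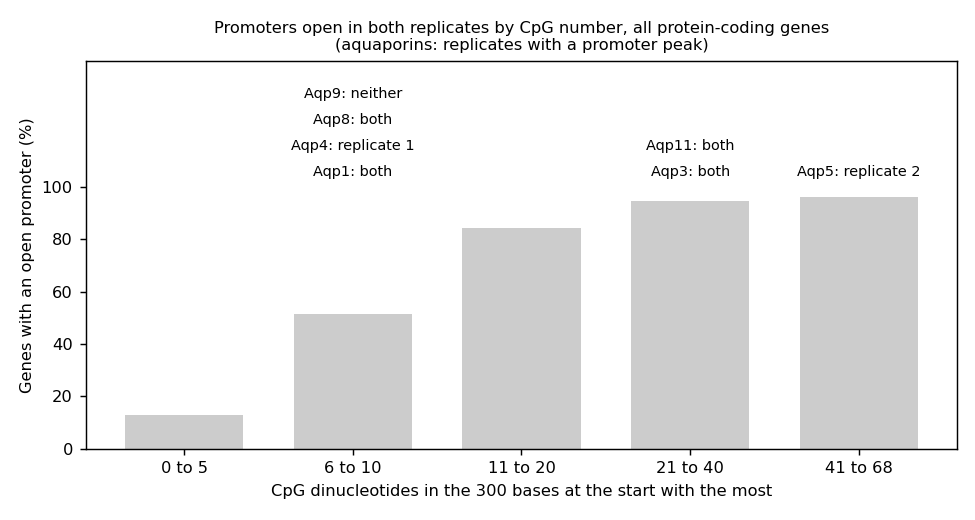
Share of protein-coding genes with a promoter open in both replicates (y axis, percent) by the number of CpG dinucleotides at the start with the most (x axis, classes), with the aquaporin genes written above their class and the replicates in which each had a promoter peak. The bars rise from 12.9 to 95.9%, and Aqp5 stands above the last bar with a peak in replicate 2 only.

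By position, 8 of the 27 shared regions lay upstream of the gene, 12 in introns, 6 downstream and 1 in an untranslated first exon. Only 5 were within 1 kb of a start of the aquaporin gene itself, and for 24 its start was the nearest coding start. Their median GC content was 53.3%, against 51.2% of all shared regions, and repeats made up 10.3% of their bases against 11.2%. The median number of CpG was 2, against 3.

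Consensus strings of 14 factors were searched on both strands, each counted whether or not it overlapped another. The TEAD string of the Hippo pathway, GGAATG, matched in 5 of 27 regions (18.5%, against 10.6% of all shared regions), at Aqp8, Aqp9 and Aqp11. The E-box CACCTG, bound by factors such as Snai and Zeb, also matched in 5 (18.5%, against 15.7%), at Aqp3, Aqp5, Aqp9 and Aqp11. Both shares rest on few regions and have no test.

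The AP-1 string TGANTCA matched in 2 regions (7.41%, against 13.1%), at Aqp3 and Aqp11. GATA, searched as AGATAA, matched in 2 as well (against 10.1%), at Aqp4 and Aqp5, and CTCF, searched by its longer consensus, in the pair at Aqp5 (against 5.30%). FOXA, with TGTTTAC as its first string and TGTTTGC as its second, matched in 1 region at Aqp9 (3.70%, against 11.4%). The HNF4 string CAAAGTCCA, whose reverse complement is the match printed above, occurred in the single Aqp8 region (against 1.03%). The GC box GGGGCGGGG matched in 1 region (against 4.15%) and the glucocorticoid receptor string ACANNNTGT in 1 (against 5.07%). No region matched GRHL (AACCGGTT), ETS (searched as CCGGAAG), the CACCC box (searched as GGGTGTG), SOX (searched as ACAATGG) or NFAT5, a factor of the response to osmotic stress, which says only that these letters are not in these regions. None of the 14 was present in 11 of the 27.

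Among the other aquaporin genes, 1 of 5 had an open promoter, against 66.4% of all protein-coding genes. Promoter CpG in these 5 ran from 3 at Mip to 8 at Aqp2, in classes with 12.9 or 51.3% of genes open. The count was not matched for CpG, so it is not shown to be a trait of these genes. The open promoter was that of Aqp12, known from pancreatic acinar cells. Its signals of 32 and 41, at percentiles 26.6 and 29.2, lay below those of every open promoter of the 7. Aqp7, the glycerol channel of fat cells, had promoter peaks in replicate 2 only. The kidney genes Aqp2, the vasopressin-regulated channel of the collecting duct, and Aqp6 had none, and neither had Mip, the channel of the eye lens. The 3 shared regions in the Mip locus lay within 1 kb of the start of the neighbouring clock-associated gene Timeless.

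Genes of epithelial fluid and ion transport were nearly all open. Of 24 listed, 23 had an open promoter, against 66.4% of all protein-coding genes. The exception was Kcnj16, a potassium channel subunit, with a promoter peak in neither replicate. Among those open were the proton pump genes Atp4a and Atp4b, the chloride channel gene Cftr and Nfat5. Promoter CpG in the list ran from 4 at Atp4b to 54 at Slc12a2, across classes with 12.9 to 95.9% of genes open. The count of 23 was not matched for CpG, so it is not shown to be a trait of transport genes. The most shared regions lay at the potassium channel gene Kcnq1 (31), the bicarbonate cotransporter gene Slc4a4 (23), the chloride channel gene Ano1 (22) and the anion exchanger gene Slc4a2 (10). Per 10 kb of locus these had 0.910, 0.617, 1.20 and 2.69, so on that scale only Slc4a2 of the 4 lay above Aqp3 with 1.96. Elsewhere in the list Kcne2 (2.33), Car9 (2.24) and Atp4a (2.10) lay above Aqp3 too, and the median of the list was 1.18. In single replicates a promoter peak was present at 68.2% of all genes in replicate 1 and 69.4% in replicate 2, against 5 of 7 aquaporin genes in each.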

How the data were processed

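Peak and hotspot lists of DNase-seq on whole stomach were used for 2 replicates of 1 group. Per the file lists deposited with them, the authors called each list from the filtered alignments of its own replicate on mm10. Which aligner, caller and thresholds they ran is not given in the sources used here. Peak signal, as deposited, is a whole number up to 149 on the chromosomes used, with no stated scaling, so a depth difference can move it, and only its rank inside a list was used. Hotspots carry a deposited -log10 q value with a ceiling of 100, and their deposited display score was not used.

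Intervals on the autosomes, X and Y were kept (139374 and 152779 peaks). Peaks with a partner in the other replicate were merged with it where they overlapped by at least 1 bp. Tools were Python 3.11.15, NumPy 2.4.6, SciPy 1.17.1 and Matplotlib 3.10.9, and the joining code was tested on simulated intervals. Genes came from GENCODE M21, with the first entry kept of each repeated symbol (27 entries dropped). Of these genes 16522 had an entry in the RefSeq promoter table, under 80%, so CpG was counted in the genome instead.

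The members and lists were chosen with earlier results of these data known, and the CTCF and NFAT5 strings and the CpG classes were set after the files were seen. All 7 aquaporins are described, with up to 3 regions per locus placed by signal rank. Listed transport genes are named when closed or among the 4 with most regions. Cftr, Atp4a, Atp4b, Nfat5, Kcne2, Car9 and Slc12a2 were named after their values were seen. So were the CTCF and HNF4 pairs, the weakest regions and genes that only place a region. Alternatives used single replicates, stricter overlap, stronger peaks, lists of equal length, hotspots, other flanks and other promoter windows.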

Additional observations from a re-analysis of the deposited data

How the results depend on the processing

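The open promoters were those of Aqp1, Aqp3, Aqp8 and Aqp11 under every alternative run, except that replicate 1 alone added Aqp4 and replicate 2 alone added Aqp5. Of 48 alternative values of the main counts, 41 stayed within 1.5 times and 7 did not. The 27 regions of the 7 loci became 15 with no flank and 76 with 50 kb on either side. The median of 4 per locus became 2 with the stronger 50% of each list, 2 with no flank and 11 with 50 kb. The 25 shared hotspots became 11 at a -log10 q of at least 10. In single replicates, left out in turn, the regions summed to 33 to 35 and the other aquaporins with an open promoter numbered 1 to 2. The single region of Aqp4 stood beside 4 peaks without replicate 1 and 3 without replicate 2, and the 4 regions of Aqp5 beside 7 peaks without replicate 2. Without a flank Aqp4 and Aqp5 held 0 regions. The changes with flank and with stricter peaks or hotspots follow from how those alternatives were built. Depth is unknown and limits which weak peaks could be called. No paired analysis was possible because there is 1 group.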
